A study of Mus musculus with 2 samples.

Results

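Primary-granule cells are myeloid cells with abundant transcripts of Elane, Mpo, Prtn3 and Ctsg, which encode neutrophil elastase, myeloperoxidase, proteinase 3 and cathepsin G, the main cargo of the primary (azurophil) granule. They were sought among gingival CD11b+ cells profiled by single-cell RNA sequencing. A barcode was kept as a cell with at least 500 UMIs (unique molecular identifiers, each standing for 1 captured transcript), at least 250 genes and at most 10% mitochondrial UMIs. Members were chosen by measured values, the UMIs of these genes in each cell: a kept cell was a member when the 4 genes held at least 0.3% of its UMIs and C1qa, C1qb and C1qc, the complement genes of macrophages, held under 0.4%. The rule found 202 members among 21268 kept cells, 132 of 9596 in the 10% Tet2-/- BMT library and 70 of 11672 in the 10% Tet2+/+ BMT library.

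The study compared recipients of bone marrow transplantation (BMT) given 10% Tet2-/- marrow with recipients given 10% Tet2+/+ marrow, the wild-type arm. The TET2 enzyme oxidises 5-methylcytosine, a step towards DNA demethylation, and its loss in blood stem cells is a known driver of clonal haematopoiesis. At 12 weeks after transplantation the mice of both groups carried a ligature around a tooth for 5 days, a model of periodontitis. CD45.2+CD11b+ cells were sorted from the gums of 10% Tet2-/- BMT mice and, by the protocol, CD45+CD11b+ cells from those of 10% Tet2+/+ BMT mice, whereas the title of the 10% Tet2+/+ BMT sample reads CD45.2+CD11b+. CD45.2 is a variant of the pan-leukocyte protein CD45 and commonly serves to tell donor from host cells. The age of the mice, the number pooled per library, the conditioning before transplantation, the deleted part of Tet2 and the makeup of the remaining marrow are not stated in the labels, and no file marks which cells descend from the 10% fraction.

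Neutrophils are made in bone marrow in a fixed order of granules. Primary granules, filled with serine proteases and myeloperoxidase, form in promyelocytes. Secondary granules, with cathelicidin (Camp), lactoferrin (Ltf) and neutrophilic granule protein (Ngp), form in later precursors that have left primary-granule synthesis behind. Monocyte precursors share an early phase of primary-granule transcription before they turn to Irf8, Klf4 and Csf1r, regulators and the growth factor receptor of the monocyte line. In the gum, most neutrophils arrive from blood as mature cells, in which the primary-granule genes are silent and their proteins stored.

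Each group had 1 library, so no test was made and all values describe these 2 libraries. Intervals are 95% and cover counting error only, exact Poisson for levels, conditional binomial for ratios and Clopper-Pearson for shares. The libraries held 93919724 and 100782700 UMIs, with a median of 5920 UMIs per kept cell in 10% Tet2-/- BMT and 5009 in 10% Tet2+/+ BMT. They shared 31 barcodes, none of them a member. Members carried Xist, the RNA of the inactive X chromosome, at 556 CPM (the UMIs of a gene per 1000000 UMIs of the class) in 10% Tet2-/- BMT and at 0 CPM in 10% Tet2+/+ BMT, while 4 Y-linked genes summed to 1.36 against 80.2 CPM. Sex of the cells, genotype of the marrow and, by the protocol, the sort gate therefore changed together, and their parts in any difference between the libraries cannot be told apart.

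Members were deep cells. Their median depth was 32456 UMIs and 4778 genes in 10% Tet2-/- BMT and 27830 UMIs and 4306 genes in 10% Tet2+/+ BMT, with 4400656 and 1846050 UMIs in all, against medians of 3958 to 12443 UMIs in the secondary-granule, mature neutrophil, monocyte, B cell and T cell classes set apart by gene rules. A few were shallow, since 6 of the 132 and 9 of the 70 had under 2000 UMIs, and 4 and 8 met the rule with fewer than 5 UMIs of the 4 genes. Only 1 member in 10% Tet2-/- BMT and none in 10% Tet2+/+ BMT had over 2.5 times the median depth. RNA outside cells, estimated from barcodes of 1 to 50 UMIs, could make up at most 1.94% of member UMIs in 10% Tet2-/- BMT and 2.21% in 10% Tet2+/+ BMT, and the 4 genes made up 0.0653% and 0.0388% of it.

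The label of the cells was set against the markers of early progenitors. Myb, a factor of cycling progenitors, was at 89.8 CPM in members of 10% Tet2-/- BMT and 91 CPM in those of 10% Tet2+/+ BMT, and Kit, the stem cell factor receptor, was at 30.9 and 24.9 CPM. Cd34, the surface marker of early progenitors, was at 6.59 and 4.33 CPM. Of 18 stem and early progenitor genes, 3 reached 10 CPM in either library, namely Kit, Cd48 (109 and 109 CPM) and Lmo2 (120.4 and 100.2 CPM). Most stem and early progenitor genes were thus under 10 CPM in both libraries, and the cells are called primary-granule cells here after the genes of their rule.

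Primary-granule cells took a larger share of the 10% Tet2-/- BMT library. They were 1.38% of its kept cells (1.15 to 1.63) against 0.6% (0.468 to 0.757) in 10% Tet2+/+ BMT, a ratio of 2.29 (1.7 to 3.11). The next stage, cells with at least 0.5% of UMIs in secondary-granule genes that are not members, were 18.9% against 14.2%, a ratio of 1.33 (1.25 to 1.43). Cells meeting a monocyte rule were 12.7% against 10.1%, with a ratio of 1.25, and cells meeting a mature neutrophil rule were 46% against 50.8%, with a ratio of 0.905. With the 4 genes required at 1% of UMIs the member ratio was 1.84 (1.23 to 2.77), an interval that overlaps those of secondary-granule and monocyte-rule cells. Shares of a sort compare cell types with each other, and more of these cells and fewer of the others cannot be told apart.

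The threshold cut through a continuum. Just inside it, from 0.3% to 0.4% of UMIs, lay 30 members in 10% Tet2-/- BMT and 16 in 10% Tet2+/+ BMT, with Elane at 1067 and 1466 CPM, Prtn3 at 1869 and 1861 CPM and Ms4a3 at 210.3 and 143 CPM. Just outside, from 0.2% to 0.3%, lay 37 and 13 cells, with Elane at 679 and 606 CPM, Prtn3 at 1448 and 1578 CPM and Ms4a3 at 173 and 145 CPM.

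Members fell into a granulocyte side and a monocyte side. A cell was put on the monocyte side when Irf8, F13a1, Klf4, Ms4a6c, Csf1r and Ly86 together had more UMIs than Cebpe, Gfi1 and Fcnb, the granulocyte factors and the ficolin of early neutrophils. Cells with equal counts of both sets, ties, were put on the granulocyte side. This split was made after the values were seen, and 6 and 7 cells lay near the cut, with a log2 balance under 1 in either direction. Most of these 7 in 10% Tet2+/+ BMT were ties. Some shallow monocyte-side cells had a balance of just 1, with 553 and 919 UMIs in 10% Tet2+/+ BMT and 562, 638 and 707 UMIs in 10% Tet2-/- BMT. In 10% Tet2-/- BMT 70 members were on the granulocyte side and 62 on the monocyte side, or 47% (38.2 to 55.8). In 10% Tet2+/+ BMT 51 were on the granulocyte side and 19 on the monocyte side, or 27.1% (17.2 to 39.1). As a share of kept cells, the granulocyte side was 0.729% against 0.437%, a ratio of 1.67 (1.15 to 2.44), and the monocyte side 0.646% against 0.163%, a ratio of 3.97 (2.34 to 7.03). With the rule at 0.3%, the larger share of members in 10% Tet2-/- BMT was therefore present on both sides, and the mix of sides differed between the libraries. The ratio on each side was not computed with the rule at 1%. With the 4 genes required at 1% of UMIs in place of 0.3%, monocyte-side cells were 24.6% and 4.65% of the remaining members, 2 cells in 10% Tet2+/+ BMT.

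**Figure D1:**
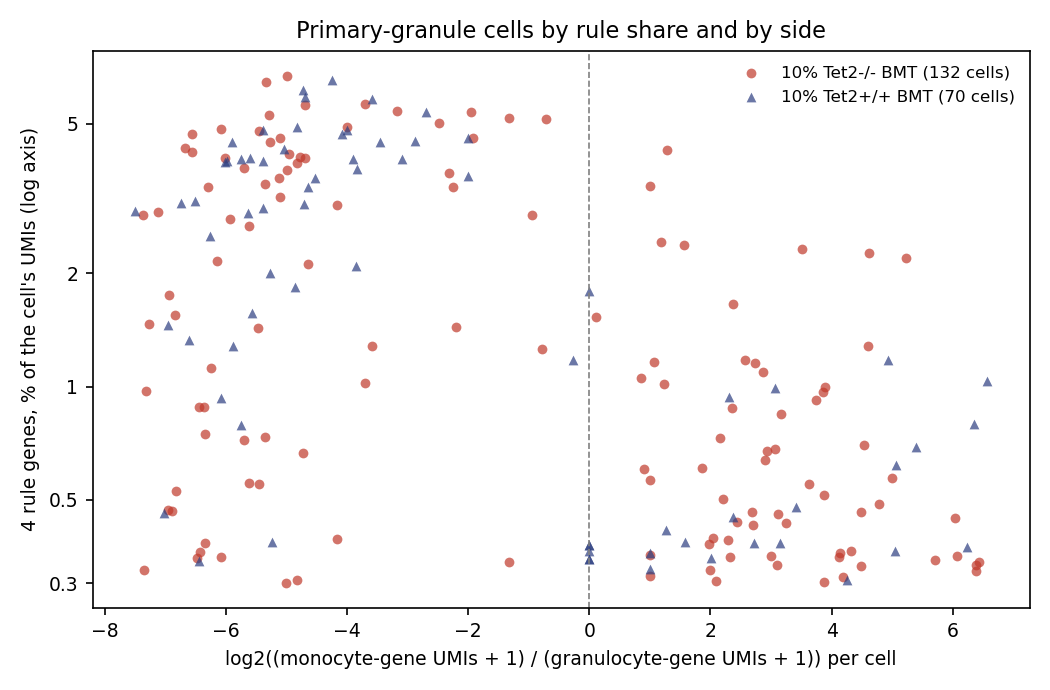
Each member as a point, by the log2 balance of monocyte-gene over granulocyte-gene UMIs (x axis) and by the percent of its UMIs in Elane, Mpo, Prtn3 and Ctsg (y axis, log scale), for 132 cells of 10% Tet2-/- BMT (circles) and 70 cells of 10% Tet2+/+ BMT (triangles). Cells left of the dashed line or on it are the granulocyte side, with median rule shares of 2.87% and 3.11%. Cells right of it are the monocyte side, with medians of 0.532% and 0.416%.

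The 4 genes that chose the members are given as a description. On the granulocyte side Elane was at 11775 CPM in 10% Tet2-/- BMT and 13109 CPM in 10% Tet2+/+ BMT, Prtn3 at 10446 and 12902 CPM, Mpo at 3338 and 3734 CPM and Ctsg at 2732 and 3685 CPM. Monocyte-side cells had Elane at 2742 and 1867 CPM, Prtn3 at 4382 and 3199 CPM, Mpo at 997 and 571 CPM and Ctsg at 1501 and 654 CPM. The monocyte side thus carried lower levels of all 4 genes in both libraries. Over all members the 4 genes had log2 ratios from -0.45 to -0.38, with more monocyte-side cells in the 10% Tet2-/- BMT sum.

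The makeup of the 4-gene sum also differed by side. Elane gave 41.6% of it in 10% Tet2-/- BMT and 39.2% in 10% Tet2+/+ BMT on the granulocyte side, with Prtn3 at 36.9% and 38.6%. In monocyte-side cells Elane gave 28.5% and 29.7%, with Prtn3 at 45.5% and 50.9%. Prtn3 was the larger protease transcript on the monocyte side of both libraries. Elane and Prtn3 lie next to each other on chromosome 10 in the same direction, Elane at 79886247 to 79888215 and Prtn3 at 79874476 to 79883174 on the plus strand of mm10, with 3072 bases from the end of Prtn3 to the start of Elane.

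Across granulocyte-side cells with at least 2000 UMIs, the 4 genes were correlated with each other and inversely with secondary-granule genes. The members were chosen on the summed share of the 4 genes, so this describes their spread above the threshold. Spearman's rho of Elane with Prtn3 was 0.84 over 68 cells of 10% Tet2-/- BMT and 0.80 over 45 cells of 10% Tet2+/+ BMT, and with Mpo 0.86 and 0.81. With Camp it was -0.77 and -0.53, and with Ngp -0.78 and -0.73, while Camp with Ngp reached 0.83 and 0.85. These are descriptions over cells of 1 library each, which share its free RNA, and all levels are shares of the same cell total.

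The start regions of 6 genes are shown, those of the 4 genes that define the members and of Camp and Ngp, genes of the next granule. Each is the RefSeq sequence of GRCm38.p6 on the gene's strand, from 250 bases before the transcription start to 50 bases after it, with capitals for matches to 4 motifs on either strand. The motifs are GAGGAA for PU.1, TTNNGNAA for C/EBP, AACNG for MYB and TGTGGT for RUNX, all of them factors of myeloid genes, and no matches overlapped. The windows are Elane chr10:79886062-79886361 (plus strand), Prtn3 chr10:79879417-79879716 (plus), Mpo chr11:87793534-87793833 (plus), Ctsg chr14:56102525-56102824 (minus), Camp chr9:109849407-109849706 (minus) and Ngp chr9:110419558-110419857 (plus).
Elane: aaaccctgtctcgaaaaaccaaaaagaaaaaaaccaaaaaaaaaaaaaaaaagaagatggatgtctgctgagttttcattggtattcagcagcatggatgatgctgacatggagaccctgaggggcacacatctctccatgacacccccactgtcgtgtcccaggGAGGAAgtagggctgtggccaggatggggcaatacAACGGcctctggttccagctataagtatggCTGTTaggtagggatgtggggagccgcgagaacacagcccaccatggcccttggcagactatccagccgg
Prtn3: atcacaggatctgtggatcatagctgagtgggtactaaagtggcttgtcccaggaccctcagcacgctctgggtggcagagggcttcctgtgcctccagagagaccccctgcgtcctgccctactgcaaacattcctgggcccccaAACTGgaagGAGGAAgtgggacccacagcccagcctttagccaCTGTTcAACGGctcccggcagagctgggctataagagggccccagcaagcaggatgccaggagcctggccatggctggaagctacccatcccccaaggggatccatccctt
Mpo: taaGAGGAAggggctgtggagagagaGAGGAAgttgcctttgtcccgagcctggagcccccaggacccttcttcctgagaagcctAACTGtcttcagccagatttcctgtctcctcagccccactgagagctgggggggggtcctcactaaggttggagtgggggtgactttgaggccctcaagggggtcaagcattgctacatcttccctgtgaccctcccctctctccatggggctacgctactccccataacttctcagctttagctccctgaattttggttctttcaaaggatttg
Ctsg: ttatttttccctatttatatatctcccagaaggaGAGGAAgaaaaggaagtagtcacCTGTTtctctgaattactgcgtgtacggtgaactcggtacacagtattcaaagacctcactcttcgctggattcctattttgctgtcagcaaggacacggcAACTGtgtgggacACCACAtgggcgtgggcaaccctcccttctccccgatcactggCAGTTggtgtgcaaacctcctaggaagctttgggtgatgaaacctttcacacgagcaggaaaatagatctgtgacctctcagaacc
Camp: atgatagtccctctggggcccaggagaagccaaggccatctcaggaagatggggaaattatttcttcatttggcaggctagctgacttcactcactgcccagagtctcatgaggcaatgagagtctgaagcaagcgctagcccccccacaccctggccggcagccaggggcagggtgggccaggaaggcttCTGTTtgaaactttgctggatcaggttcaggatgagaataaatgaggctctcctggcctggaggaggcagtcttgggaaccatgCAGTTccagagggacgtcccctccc
Ngp: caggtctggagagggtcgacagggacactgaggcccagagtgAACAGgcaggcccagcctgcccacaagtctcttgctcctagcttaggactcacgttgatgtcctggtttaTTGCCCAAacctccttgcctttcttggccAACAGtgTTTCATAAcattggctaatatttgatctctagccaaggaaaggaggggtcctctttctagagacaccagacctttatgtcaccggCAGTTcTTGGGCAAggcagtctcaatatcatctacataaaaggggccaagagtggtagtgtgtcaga

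All 4 primary-granule windows held GAGGAA, once in Elane, Prtn3 and Ctsg and in 2 places in Mpo, and those of Camp and Ngp held none. The match began at position -85 in Elane and -95 in Prtn3, counted from the transcription start. Among 32851 windows of the same length, 28.3% held GAGGAA. TTNNGNAA was in 40.7% of all windows and, of these 6, in Ngp, at 3 places. AACNG was in 80.3% of all windows and in each of the 6, and TGTGGT was in 16.8% of all windows and in Ctsg. A match is a run of letters and no measure of binding, and none was measured here.

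Genes outside the rule that were most concentrated in primary-granule cells were led by Ms4a3, a membrane gene of granulocyte-monocyte progenitors. It was at 922 CPM in members of 10% Tet2-/- BMT and 17 CPM in the other kept cells, and at 1107 CPM in members of 10% Tet2+/+ BMT and 9.8 CPM in the other kept cells. Prss57, a further serine protease of the azurophil granule, was at 179 and 8.47 CPM in 10% Tet2-/- BMT and at 236 and 6.31 CPM in 10% Tet2+/+ BMT. Fcnb (ficolin B), Nkg7 and Cst7 (cystatin F, an inhibitor of granule proteases) were among the 25 leading genes as well. Others were genes of dividing cells, among them Dut and Rrm2 of nucleotide synthesis, the tubulin-binding Stmn1, Pclaf, Gmnn and the histone genes Hist1h1b, Hist1h2ap and Hist1h2ae, of which the last 2 have near-identical copies and uncertain counts. Phgdh, the first enzyme of serine synthesis, was at 89.1 CPM against 6.95 CPM in other kept cells of 10% Tet2-/- BMT and at 91 against 6.65 CPM in 10% Tet2+/+ BMT. With each cell thinned to 1000 UMIs, Ms4a3 was seen in 46.1% of members of 10% Tet2-/- BMT and 53.2% of those of 10% Tet2+/+ BMT (93.2% and 85.7% unthinned), against 0% and 0.162% of cells meeting a B cell rule, and 4 and 8 shallower members were left out.

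Genes that serve the primary granule followed the sides. In granulocyte-side cells Cd63, a tetraspanin of the azurophil granule membrane, was at 994 and 1067 CPM, Srgn (serglycin, the proteoglycan that packs the proteases) at 3474 and 3646 CPM and Serpinb1a, the inhibitor of elastase, at 1293 and 1304 CPM. In monocyte-side cells the 3 genes were at 49.1 and 15 CPM, 1105 and 798 CPM, and 293 and 186 CPM. Ctsc, the dipeptidyl peptidase that activates all of these proteases, went the other way, at 26.8 and 9.9 CPM on the granulocyte side and 604 and 693 CPM on the monocyte side. Alas1, the first enzyme of haem synthesis, which myeloperoxidase requires, was at 299 and 256 CPM on the granulocyte side and at 169 and 58.2 CPM on the monocyte side.

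Within the granulocyte side, cells were ordered by the share of the 4 genes, in bins of 0.3% to 1% (21 and 10 cells), 1% to 3% (16 and 13 cells) and at least 3% (33 and 28 cells). Camp was at 22870, 12512 and 287 CPM from the low to the high bin in 10% Tet2-/- BMT, and at 53124, 36253 and 4114 CPM in 10% Tet2+/+ BMT. Ngp was at 24793, 7860 and 491 CPM in 10% Tet2-/- BMT, and at 22098, 10760 and 1151 CPM in 10% Tet2+/+ BMT. Both secondary-granule genes were thus lower where the primary-granule share was higher, and Camp was lower in 10% Tet2-/- BMT in every bin. In the low bin, some of the 10 cells of 10% Tet2+/+ BMT had 526 to 575 UMIs and were ties in the split. The sums of that bin therefore rest mainly on its deeper cells.

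In the same order Ms4a3 was at 608, 987 and 2078 CPM in 10% Tet2-/- BMT and at 513, 1001 and 1884 CPM in 10% Tet2+/+ BMT. Hspa5, the main chaperone of the endoplasmic reticulum, was at 137, 315 and 427 CPM in 10% Tet2-/- BMT and at 64.2, 330.4 and 875 CPM in 10% Tet2+/+ BMT. Both went up with the share of the 4 genes, and the libraries stood apart in Hspa5 in the highest bin. Mki67, a marker of proliferation, was at 405, 477 and 188 CPM in 10% Tet2-/- BMT and at 356, 193 and 88.5 CPM in 10% Tet2+/+ BMT.

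**Figure D2:**
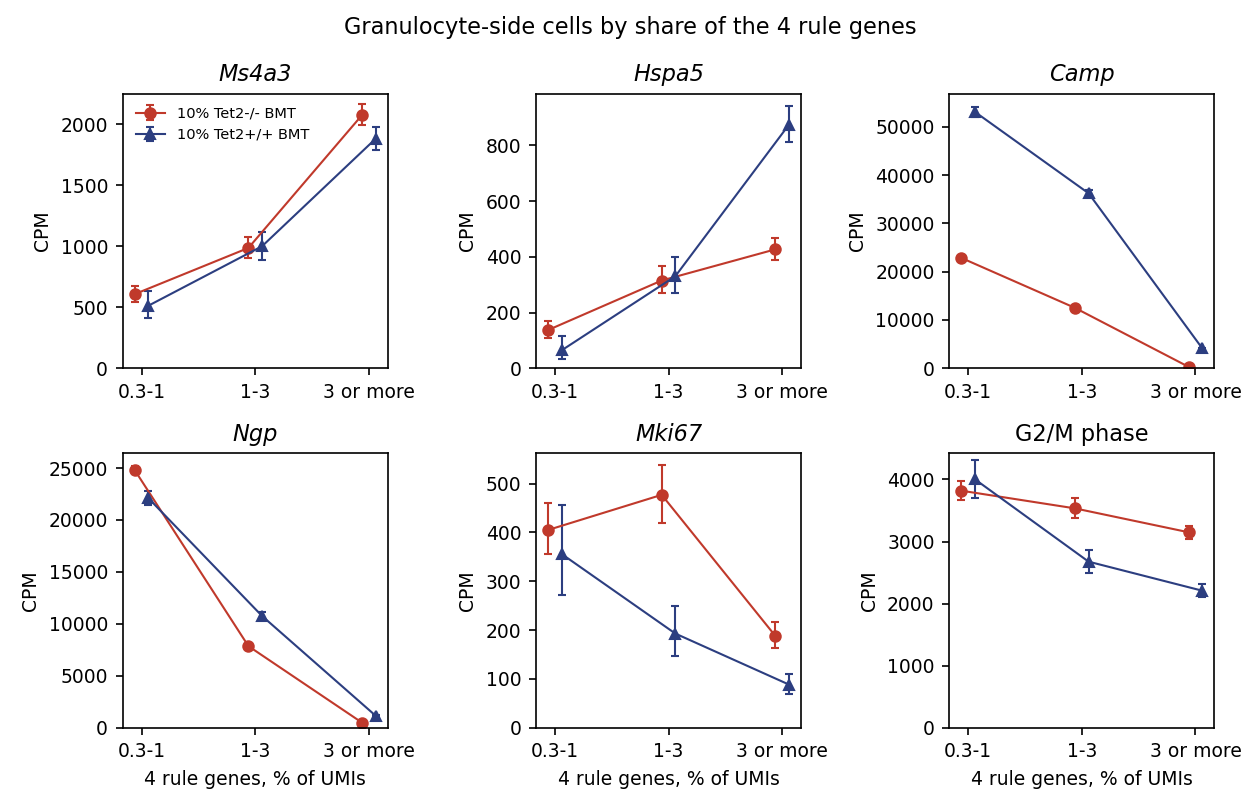
Level of 5 genes and of the summed G2/M list (CPM, y axis) in granulocyte-side members binned by the percent of UMIs in the 4 rule genes (x axis), for 10% Tet2-/- BMT (circles) and 10% Tet2+/+ BMT (triangles), with exact 95% Poisson intervals. Camp and Ngp are highest in the lowest bin of both libraries, and Camp in 10% Tet2-/- BMT lies below 10% Tet2+/+ BMT in all 3 bins.

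Transcription factors marked the sides in both libraries. Cebpe, required for secondary granules, was at 421 and 459 CPM on the granulocyte side and 41.8 and 41.3 CPM on the monocyte side. Gfi1, the repressor of monocyte genes, was at 49.6 and 51 CPM on the granulocyte side. Irf8 was at 12.7 and 5.33 CPM on the granulocyte side and 252 and 321 CPM on the monocyte side, and Klf4 at 15 and 2.28 CPM and at 368 and 526 CPM. These 4 genes had placed the cells. Of factors not used for that, Zeb2 was at 65 and 26.6 CPM on the granulocyte side and 307 and 287 CPM on the monocyte side, Myb at 123 and 109.6 CPM and at 56.3 and 45.1 CPM, and Spi1, which encodes PU.1, at 341 and 303 CPM and at 424 and 393 CPM. Cebpa, the factor that opens the granulocyte-monocyte program, was at 26.4 and 23.6 CPM and at 39.5 and 62 CPM.

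Growth factor receptors were low to moderate. Csf3r, the receptor of the granulocyte factor G-CSF, was at 102 and 67 CPM on the granulocyte side and at 57.7 and 75.1 CPM on the monocyte side. Csf2ra and Csf2rb, the chains of the GM-CSF receptor, were at 195 and 189 CPM and at 64.1 and 35 CPM on the granulocyte side, and at 299.8 and 291 CPM and at 183 and 118 CPM on the monocyte side. Cxcr4, which holds precursors in marrow, was at 27.3 and 24.4 CPM on the granulocyte side and at 74 and 133 CPM on the monocyte side.

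Genes of committed monocytes that had not placed the cells were present on the monocyte side of both libraries. Ly6c2, the marker of inflammatory monocytes, was at 2969 and 3067 CPM, Ccr2, their homing receptor, at 374 and 331 CPM, and Fn1 (fibronectin) at 317 and 248 CPM. Granulocyte-side cells had Ly6c2 at 1576 and 1053 CPM, and Ccr2 and Fn1 were below 10 CPM in both libraries. The neutrophil genes S100a8 and S100a9 were at 70072 and 57802 CPM and at 81602 and 59056 CPM on the granulocyte side. Monocyte-side levels were 11188 and 3452 CPM for S100a8 and 6849 and 2207 CPM for S100a9.

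Cell-cycle transcripts were high in primary-granule cells. The 22 genes of the S phase list summed to 2534 CPM in 10% Tet2-/- BMT and 2511 CPM in 10% Tet2+/+ BMT, a ratio of 1.01 (0.975 to 1.04). The 22 G2/M genes summed to 4306 and 3204 CPM, a ratio of 1.34 (1.31 to 1.38), and the median cell had 3643 and 1800 CPM. In the secondary-granule cells the sums were 442 and 334 CPM for S phase and 1542 and 925 CPM for G2/M, and in monocyte-rule cells 700.4 and 527 CPM and 1596 and 1096 CPM. High levels were not particular to members. Cells just outside the threshold, from 0.2% to 0.3% of UMIs, had Mki67 at 615 and 518 CPM, against 459 and 253 CPM over all members. No phase was called per cell.

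An excess of G2/M transcripts in 10% Tet2-/- BMT was present outside the members too, with ratios of 1.67 in secondary-granule cells, 1.67 in mature neutrophils, 1.46 in monocyte-rule cells and 1.57 over all other kept cells, each above that of the members. S phase ratios in those classes were 1.32, 1.4, 1.33 and 1.31. On the granulocyte side of the members the G2/M sums were 3423 and 2551 CPM (ratio 1.34, 1.29 to 1.4). On the monocyte side they were 5188 and 4816 CPM (ratio 1.08, 1.03 to 1.12), and S phase was at 2739 and 3077 CPM there (ratio 0.89, 0.843 to 0.941). Among single genes on the granulocyte side, Mki67 was at 317 and 148 CPM, Kif11, a spindle motor, at 97.8 and 40.3 CPM and Top2a, the topoisomerase of mitosis, at 375 and 223 CPM. All 3 were past 1.5-fold there, and on the monocyte side their log2 ratios were 0.22, 0.37 and 0.02. With 1 library per group the difference between the sides has no test.

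The libraries were compared gene by gene on UMIs summed over members. A gene counted as higher or lower when its log2 ratio of 10% Tet2-/- over 10% Tet2+/+ BMT, with a pseudocount of 10 CPM, passed 1.5-fold (0.58), among genes that reached 50 CPM in at least 1 library and 100 UMIs in the sum of both. Over all members, 105 of 2637 genes were higher (3.98%) and 21 lower (0.796%), with 83.3% of calls higher and a median log2 ratio of 0.06. At the lower limit of 10 CPM, used for gene lists, 3.62% of 7066 genes were higher and 1.06% lower, with a median of 0.08. This split was tied to the mix of sides and to the scaling: with both sides weighted equally 33 were higher and 30 lower (52.4% higher), with TMM scaling 66 and 36 (64.7%), with median-of-ratios scaling 61 and 41 (59.8%), with the mean of per-cell CPM 199 and 223 (47.2%) and with cells thinned to 1000 UMIs 16 and 13 (55.2%).

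Among the 12 highest genes over all members, inflammatory mediators were frequent. Cxcl2, a neutrophil-attracting chemokine, was at 559.9 CPM in 10% Tet2-/- BMT and 109 CPM in 10% Tet2+/+ BMT, a ratio of 5.12 (4.43 to 5.94). Il1b, which encodes interleukin-1 beta, was at 506 and 223 CPM (2.27, 2.05 to 2.53). Ptgs2, the inducible prostaglandin synthase, was at 94.5 and 26 CPM, and Il1rn, the interleukin-1 receptor antagonist, at 51.6 and 14.6 CPM. Thbs1 (thrombospondin), Ifitm1 and Ifitm3 (interferon-induced membrane proteins), Fabp5 (a fatty acid binder), Cdkn1a (the cell-cycle inhibitor p21) and Plek were also among them. Cxcl3 was at 74.3 and 4.88 CPM, with 48.3% of its 10% Tet2-/- BMT UMIs from 1 cell, and Saa3, an acute-phase protein, at 65.2 and 0.542 CPM, with 59.6% from 1 cell. Without the cell richest in each gene in each library, all 24 named genes were still past 1.5-fold. For Cxcl2 this removes 1 cell, whereas on each side 1 cell of 10% Tet2-/- BMT held most of the Cxcl2 UMIs. On the granulocyte side that cell held 56.2%.

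Among the 12 lowest, Camp was at 4712 and 12813 CPM (0.368, 0.361 to 0.375), Hp (haptoglobin) at 889.6 and 1420 CPM, Chil1 at 40 and 76.4 CPM and Mgl2, a galactose-type lectin, at 14.8 and 61.8 CPM. Stfa1, a stefin whose gene cluster has near-identical copies and uncertain counts, was at 1.59 and 79.1 CPM. Hspa1a, a heat-shock chaperone that shares most of its sequence with Hspa1b, was at 3.18 and 55.3 CPM, with 29.4% of its 10% Tet2+/+ BMT UMIs from 1 cell. Ccl2, the monocyte-attracting chemokine, was at 40.9 and 105 CPM, and Vcam1, Nedd4, Ifi27, Rsrp1 and H1f0 completed the 12.

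**Figure D3:**
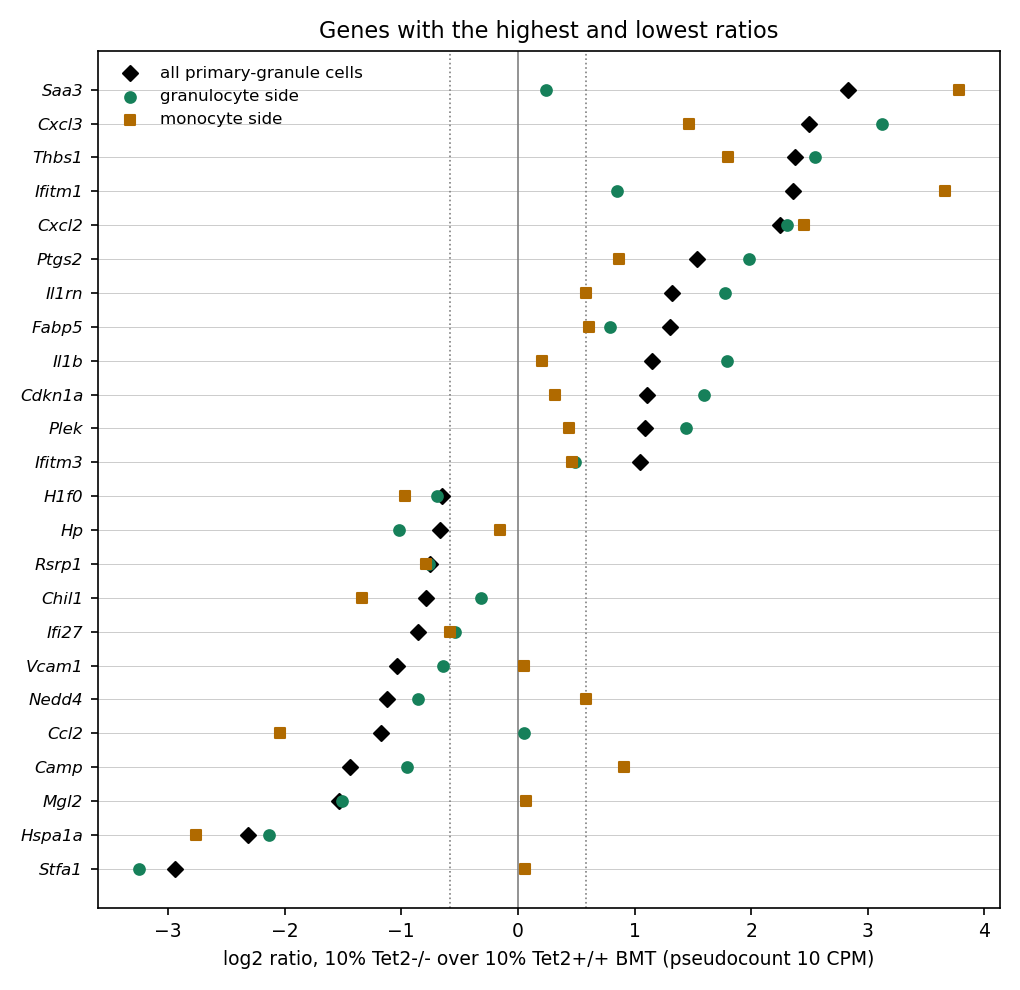
Log2 ratio of 10% Tet2-/- over 10% Tet2+/+ BMT (x axis, pseudocount 10 CPM) for the 12 highest and 12 lowest genes over all members (diamonds), with the ratio on the granulocyte side (circles) and on the monocyte side (squares), and dotted lines at 1.5-fold. Cxcl2 lies past the line on both sides, Il1b on the granulocyte side alone, and Camp on opposite sides of 0, at -0.95 on the granulocyte side and 0.91 on the monocyte side.

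Each side compared with itself gave partly other genes. On the granulocyte side 146 of 2388 genes were higher (6.11%) and 83 lower (3.48%), with 63.8% of calls higher, 50.7% under TMM and 44.2% under median-of-ratios scaling. On the monocyte side 78 of 2998 were higher (2.6%) and 70 lower (2.33%), with 52.7% of calls higher and 66.1% under either scaling. Of the 70 lower genes 22 had over 20% of their 10% Tet2+/+ BMT UMIs from 1 cell, against 1 of the 83 lower on the granulocyte side. Of 2197 genes eligible on both sides, 130 and 61 were higher and 11 were shared, 8.46% and 18% of the 2 sets, among them Cxcl2, Thbs1, Ptgs2, Chil3, Lcn2, Ltf and Csf2rb. Of 69 and 25 lower genes 2 were shared, Lgals1 and Rsrp1.

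Most measured inflammatory and feedback genes were higher in 10% Tet2-/- BMT on the granulocyte side. Of 14 measured genes of the inflammatory list (at 10 CPM or more in either library), 11 were past 1.5-fold higher and 1 lower, with a median log2 ratio of 1.18, against 7.06% higher, 3.27% lower and a median of 0.05 over all 6667 genes at that level. Cxcl2 was at 645 and 122 CPM, Il1b at 568 and 158 CPM, Ptgs2 at 119 and 22.8 CPM and Il1rn at 53.2 and 8.37 CPM. A single 10% Tet2-/- BMT cell held 56.2% of the Cxcl2 UMIs, 48.5% of those of Ptgs2 and 57.3% of those of Il1rn, and 15.5% of those of Il1b. Without the richest cell of each library the log2 ratios were 1.62, 1.4 and 0.95, and 1.87 for Il1b. Ccl5, a lymphocyte-attracting chemokine, was the 1 lower, at 2.73 and 52.5 CPM, with 95.7% of its 10% Tet2+/+ BMT UMIs from 1 cell, and without the richest cells it was at 2.31 and 2.37 CPM. The cell richest in Cxcl2 in 10% Tet2-/- BMT was also the richest in Ptgs2, Il1rn, Il1b, Cxcl3 and Il1a. Without that cell and the one richest in Cxcl2 in 10% Tet2+/+ BMT, 8 of 13 measured genes of the list were higher and 2 lower, with a median of 0.88.

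The summed inflammatory list was higher in 10% Tet2-/- BMT in the other classes as well. On the granulocyte side its sums were 1989 and 759.7 CPM (ratio 2.62, 2.44 to 2.81), and on the monocyte side 2413 and 2162 CPM (1.12, 1.05 to 1.19). These sums include the 1 cell per side that held most of the Cxcl2 UMIs of 10% Tet2-/- BMT, 56.2% on the granulocyte side. The intervals do not cover the weight of such a cell, and the sums were not computed without it. The ratios were 1.62 in secondary-granule cells, 1.33 in mature neutrophils, 1.56 in monocyte-rule cells and 1.21 over all other kept cells. A difference between the libraries was thus present outside the members, and with 1 library per group its size in different classes has no test.

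Immediate early genes, which respond to stimulation and to tissue dissociation, had a median of 0.46 on the granulocyte side. Of 16 measured, 4 were higher, among them Btg2 (190.1 and 69.3 CPM), Fos (1195 and 634 CPM) and Nr4a1 (65.5 and 28.2 CPM), and 2 were lower, Hspa1a and Hspa1b, the heat-shock pair. Of 15 measured secondary and tertiary granule genes, 7 were higher and 2 lower (median 0.53), while the list summed to 32088 and 33984 CPM (ratio 0.944, 0.933 to 0.955). Ltf was at 658 and 265 CPM, Chil3 at 3369 and 1733 CPM and Lcn2 at 2552 and 1692 CPM, whereas Camp was at 9331 and 17987 CPM and Hp at 749 and 1532 CPM. Genes of the same granule thus lay on opposite sides of the 1.5-fold line, and with the 4 rule genes required at 1% of UMIs the list median was -0.06.

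Lists of protein folding, ribosome making and respiration had medians below 0 on the granulocyte side, although most of their genes did not pass 1.5-fold. Of 16 endoplasmic reticulum folding genes 5 were lower and none higher (median -0.47), with Hspa5 at 322 and 642 CPM, Manf at 172 and 341 CPM, Pdia4 at 44.1 and 76.1 CPM, Pdia6 at 327 and 515 CPM and Sdf2l1 at 161 and 249.7 CPM. Of 14 ribosome biogenesis genes 3 were lower (median -0.40), among them Pa2g4 at 137 and 214 CPM and Nop10 at 216 and 331 CPM. None of 18 oxidative phosphorylation genes passed 1.5-fold, with a median of -0.34. Srm, which makes spermidine, was at 32.3 and 77.6 CPM. The mix of clusters, from the Leiden clustering of members given below, differed too. Cluster 5 held 9 of 70 granulocyte-side cells in 10% Tet2-/- BMT and 16 of 51 in 10% Tet2+/+ BMT. Srm was among the leading genes of that cluster, at 165 CPM against 33.5 CPM in other members. The part of this mix in the 3 medians was not tested. These medians kept their sign under both other scalings, with members of at least 2000 UMIs and with the rule at 1%, from -0.53 to -0.36, -0.46 to -0.27 and -0.41 to -0.30. On the monocyte side the 3 medians were 0.16, 0.09 and -0.08, and -0.00, -0.02 and -0.08 in its 54 and 16 cells of clusters 6 and 7, and the difference between the sides was not tested.

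**Figure D4:**
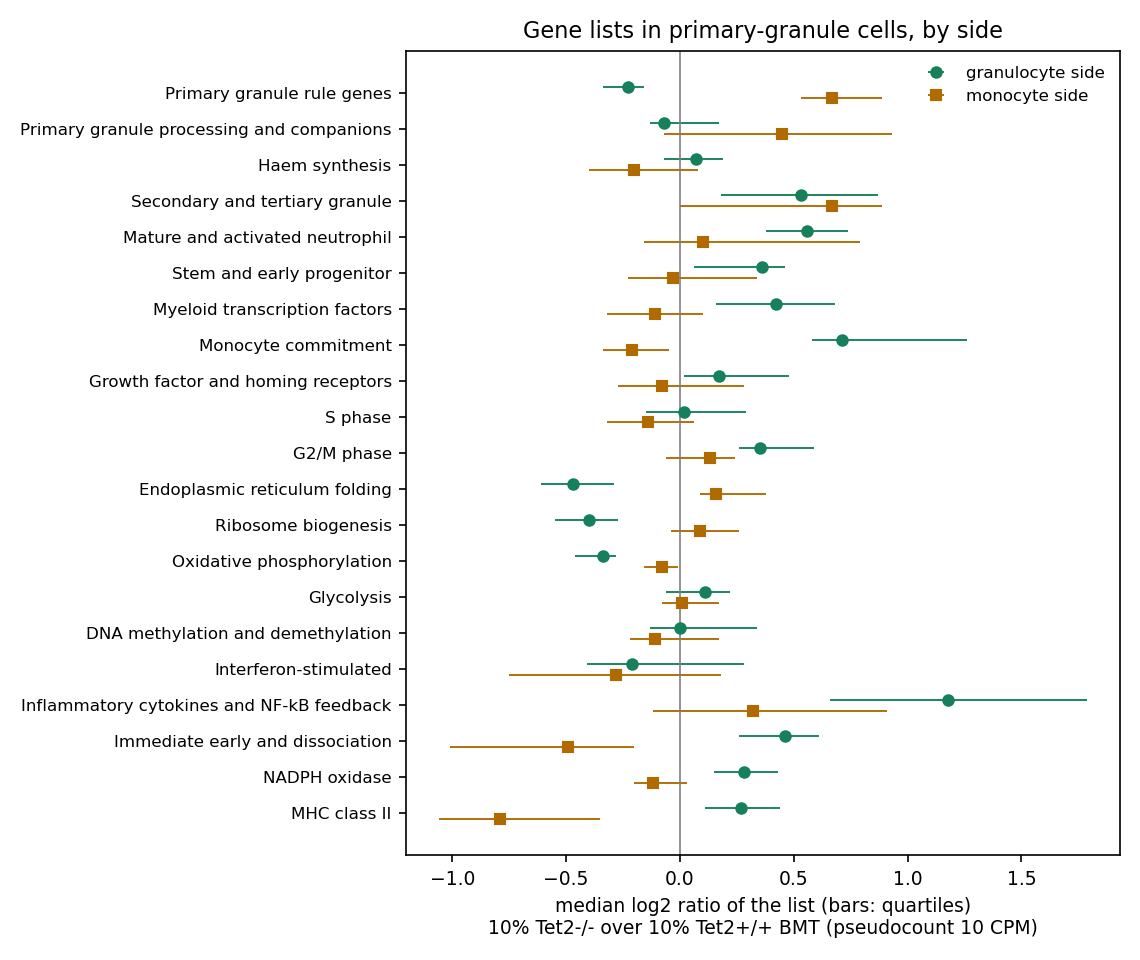
Median log2 ratio of 10% Tet2-/- over 10% Tet2+/+ BMT (x axis, pseudocount 10 CPM) of 21 gene lists on the granulocyte side (circles) and the monocyte side (squares), over genes at 10 CPM or more, with bars from the lower to the upper quartile of the list's genes. Endoplasmic reticulum folding lies at -0.47 on the granulocyte side and 0.16 on the monocyte side, and immediate early genes at 0.46 and -0.49. In monocyte-side cells of clusters 6 and 7 alone the folding median is -0.00, and the libraries held different mixes of clusters on both sides.

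Several granule genes were higher in 10% Tet2-/- BMT on the monocyte side. Of 14 measured secondary and tertiary granule genes 7 were past 1.5-fold higher and none lower (median 0.67), against 5.09% higher, 5.06% lower and a median of -0.03 over all 7483 genes at that level. The sum of the list was not higher, at 11663 and 12192 CPM (ratio 0.957, 0.931 to 0.983). Lcn2 (lipocalin 2) was at 968 and 338 CPM, Chil3 at 2416 and 1101 CPM and Ngp at 210.3 and 78.9 CPM. S100a8 was at 11188 and 3452 CPM, a ratio of 3.24 (3.09 to 3.4), with 34% of its 10% Tet2+/+ BMT UMIs from 1 of 19 cells. Of 14 measured mature and activated neutrophil genes 4 were higher and 1 lower (median 0.10). Ms4a3 was at 427 and 137 CPM and Nkg7 at 146 and 31.9 CPM, and 4 of 11 measured genes of the primary-granule companion list were higher (median 0.45). Alas1 was at 169 and 58.2 CPM, but of 7 measured haem synthesis genes 1 was higher and 1 lower (median -0.20). That list summed to 312 and 239 CPM. The median rule share of these cells was 0.532% against 0.416%.

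The monocyte side of the libraries did not hold the same clusters of the Leiden clustering of members. In 10% Tet2-/- BMT 29 and 25 of its cells were in clusters 6 and 7, 6 in cluster 5 and 2 in cluster 3, and the 6 had rule shares of 2.2% to 4.27%. In 10% Tet2+/+ BMT 8 and 8 were in clusters 6 and 7 and 3 in cluster 4. These 3 had 518, 553 and 919 UMIs, and the 2 cells of 10% Tet2-/- BMT in cluster 3 had 638 and 707 UMIs. Within clusters 6 and 7 alone, 54 and 16 cells, the primary-granule companion list had 2 of 11 genes higher and a median of 0.04, with Ms4a3 at 241 and 138 CPM and Nkg7 at 84.7 and 32.1 CPM. Alas1 was at 127 and 58.4 CPM there, while of 7 measured haem synthesis genes 1 was higher and 2 lower (median -0.27). The 4 rule genes, given as a description, had a median of 0.11 there, against 0.67 on the whole monocyte side. Secondary and tertiary granule genes had 8 of 14 higher and a median of 0.75, with Lcn2 at 1067 and 328 CPM and S100a8 at 12383 and 3318 CPM. The companion genes therefore moved towards the level of 10% Tet2+/+ BMT without the other clusters, and the secondary-granule genes did not.

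Saa3 on the monocyte side was at 128 CPM in 10% Tet2-/- BMT, 60.9% of it from 1 cell, and had no UMI among 532409 in 10% Tet2+/+ BMT. Set against a floor of 3 UMIs (5.63 CPM) its sum was 22.7-fold higher with that 1 cell included, so this is no lower bound. Ifitm1 was at 329.8 and 16.9 CPM, Cxcl2 at 475 and 78.9 CPM with 52.2% from 1 cell, and Thbs1 at 267 and 69.5 CPM.

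Some antigen presentation and immediate early genes were lower there. Of 6 MHC class II genes 4 were lower (median -0.79), with Cd74, the invariant chain, at 69.5 and 148 CPM and H2-Aa at 19.1 and 56.3 CPM, and with the 4 rule genes required at 1% of UMIs the list median was 0.15. Macrophage markers were lower beside them, 5 of 7 measured (median -0.81), with sums of 272 and 426 CPM, and their part in the result was not tested. In 10% Tet2+/+ BMT 1 cell held 39.2% of the Cd74 UMIs, and without the richest cell of each library its log2 ratio was -0.46. Of 16 immediate early genes 6 were lower and 1 higher (median -0.49), with Egr1 at 87.7 and 210.4 CPM, Dusp1 at 148 and 349 CPM and Klf2 at 561 and 1093 CPM. Ccl2 was at 79 and 357 CPM, and Ly86 and Ifi30, genes of monocytes and antigen-presenting cells, at 97.2 and 207 CPM and at 325 and 674 CPM. Of 13 monocyte commitment genes, Ly86 and others of which had placed the cells, 11 lay between the lines, with a median of -0.21. The 10% Tet2+/+ BMT values rest on 19 cells.

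Markers of other cell types were low in the members. Of 10 T, NK and ILC genes, 6 and 4 had no UMI, and the list summed to 2.05 CPM in 10% Tet2-/- BMT and 9.75 CPM in 10% Tet2+/+ BMT, with Cd3g at 0 in both. Macrophage genes summed to 291 and 106 CPM on the granulocyte side, where all 4 measured were higher, and Folr2 was at 0 on both sides. B cell genes summed to 149.6 and 79.9 CPM on the granulocyte side and 164 and 212 CPM on the monocyte side. Erythroid genes summed to 26.4 and 32.5 CPM, megakaryocyte genes to 32.9 and 24.9 CPM, dendritic genes to 69.3 and 74.8 CPM, eosinophil genes to 36.6 and 24.4 CPM, mast cell and basophil genes to 114 and 127 CPM, plasma cell genes to 138 and 133 CPM and stromal, endothelial and epithelial genes to 11.1 and 8.67 CPM over all members. The macrophage and B cell sums were thus higher in 10% Tet2-/- BMT on the granulocyte side, where inflammatory genes were also higher, and their part in that result was not tested.

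Leiden clustering of the 202 members, without the 4 rule genes, gave 7 clusters at resolution 1, and 93.6% of cells lay in a cluster whose majority was on their side. Clusters 1, 2 and 5, on the granulocyte side, had median rule shares of 3.81%, 3.77% and 4.57%. Cluster 5, led by Fkbp11, Ccl5 and Pdcd4, with Myb among its 10 leading genes (230.2 CPM), had the least Camp of these 3, at 577 CPM. All of its Ccl5 UMIs came from 1 of its 31 cells, whereas Fkbp11 had UMIs in 27 and Pdcd4 in 29. Cluster 2, led by Cd63, Cd81 and Prss57, had Camp at 5094 CPM, and cluster 1 was led by Sdc4, Cxcl3 and Cxcl2. In cluster 1 a single cell of its 17 held 97.6% of the Sdc4 UMIs, 98.8% of those of Cxcl3 and 84.3% of those of Cxcl2, so these genes describe that cell.

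Clusters 3 and 4 were the secondary-granule end of the granulocyte side, with median rule shares of 0.935% and 0.426%. Cluster 3, led by Camp, Ngp and Orm1, had Camp at 34211 CPM, and cluster 4, led by Ltf, Il1b and Ngp, had Ltf at 1856 CPM and Il1b at 2067 CPM. Clusters 6 and 7 held the monocyte side, with median rule shares of 0.797% and 0.365%. Cluster 6 was led by Klf4, Lpl and Irf8, and cluster 7 by Fn1, Saa3 and Ccl2, with Mki67 at 529 and 793 CPM. Each cluster held cells of both libraries, but the 5 cells of 10% Tet2+/+ BMT in cluster 4 had 518 to 919 UMIs each. The levels of cluster 4 thus come almost wholly from its 11 cells of 10% Tet2-/- BMT. Genes that lead clusters 1, 4 and 7 also differed between the libraries. The numbers of cells per cluster given above are therefore descriptions, and their differences were not tested.

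**Figure D5:**
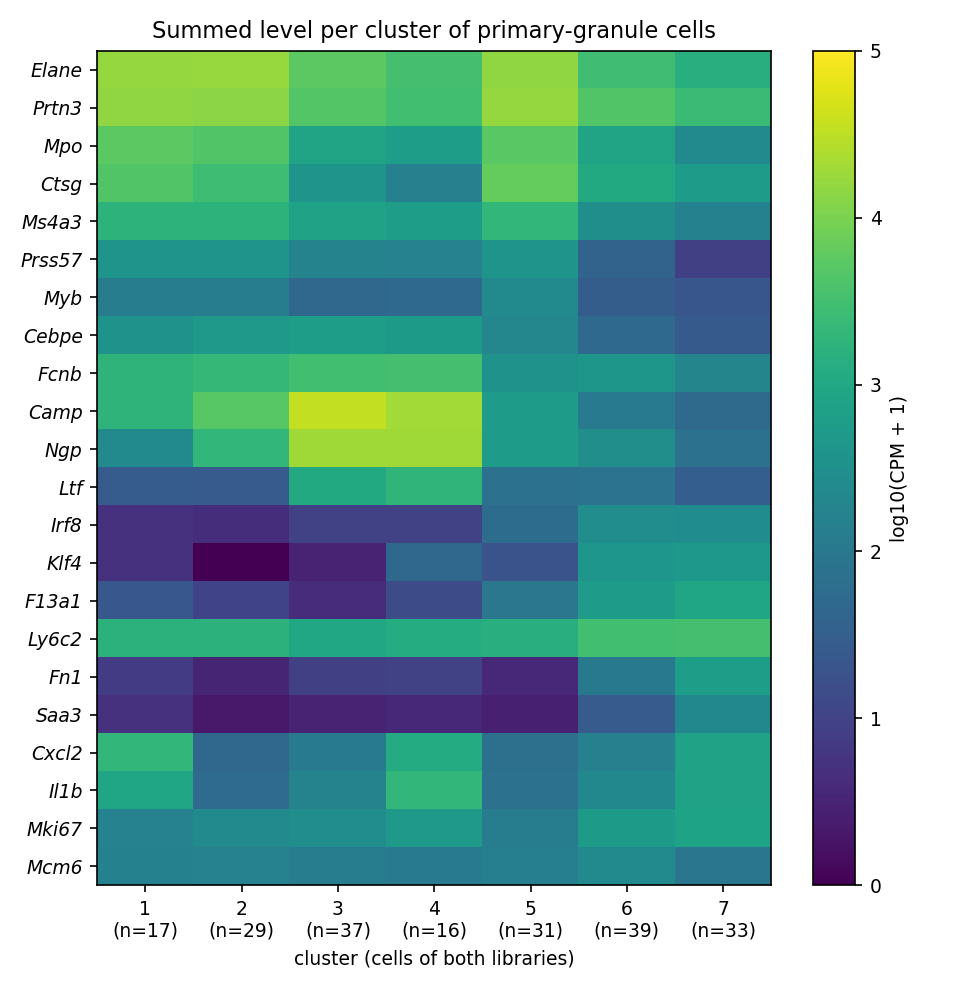
Summed level (colour, log10 of CPM + 1) of 22 genes (rows) in 7 clusters of members (columns, with their number of cells from both libraries), including the 4 rule genes, which were left out of the clustering. Elane, Prtn3, Mpo and Ctsg are highest in clusters 1, 2 and 5, Camp and Ngp in clusters 3 and 4, and Irf8, Klf4 and F13a1 in clusters 6 and 7.

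Tet2 itself was at 39.5 CPM in members of 10% Tet2-/- BMT and 23.8 CPM in those of 10% Tet2+/+ BMT, a ratio of 1.66 (1.19 to 2.37) from 174 and 44 UMIs. On the granulocyte side it was at 25.5 and 14.5 CPM and on the monocyte side at 53.6 and 47 CPM. The assay counts the 3' ends of transcripts, and transcripts that lack internal exons are counted too, so the Tet2 level is no check of the deletion. Of the other genes of DNA methylation and demethylation, Dnmt1, the maintenance methyltransferase, was at 174 and 152 CPM and Tet3 at 26.4 and 20.6 CPM. Of 9 measured genes of that list none was past 1.5-fold higher and 1 lower, Dnmt3l at 2.5 and 10.3 CPM.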

How the data were processed

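The files hold raw counts of UMIs per gene and barcode, empty barcodes included, as deposited by the authors. Per the submitters' processing notes they were made with Cell Ranger 6.1.2 on mm10, while the file headers name Cell Ranger 4, and per the labels' protocols cells were captured with a 10x 3' kit. From these counts, cells were kept and members chosen by the rules given above. The rule, gene lists and named genes were set with earlier results of these data known. The 2 sides, and the other settings named as such below, were chosen after the values were seen. For each library the UMIs of a class were added up and expressed as CPM, and list members needed 10 CPM in either library. With 1 library per group no p-value was computed, cells were not used as replicates, and intervals cover counting error only.

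The rule for named genes took 12 genes in each direction with the largest ratios past 1.5-fold, the 25 most concentrated in members, the 10 leading genes of each cluster, 2 to 4 genes per list with the largest ratios at 50 CPM or more, and a fixed set with the rule genes, Ms4a3, Ctsc, Cd34, Kit and Tet2. The ranking left out sex-linked marker genes (Xist and those on Y), haemoglobins, antigen receptor genes and ribosomal and mitochondrial genes. Other genes of the fixed lists are named where their role is described. Genes with near-identical copies (Stfa1, Hspa1a and Hspa1b, histones) have uncertain counts. No doublet caller was run, and cells over 2.5 times the median depth were left out as an alternative. Members were clustered with Leiden (igraph 0.11.9, scanpy 1.11.5) on 1500 variable genes, 20 principal components and 15 neighbours. Other work used Python 3.11.15, numpy 2.4.6, scipy 1.17.1 and pandas 2.3.3. The ratios and their intervals were tested on simulated counts with independent UMIs, which does not check them for genes whose UMIs come mostly from 1 cell. Positions of genes are from GENCODE M21 and start regions from RefSeq on GRCm38.p6. Other settings were the cuts on UMIs and rule share, scaling, pseudocount, minimum level, thinning, free RNA and cluster resolution.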

Additional observations from a re-analysis of the deposited data

How the results depend on the processing

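The share of members kept a ratio of 1.84 to 2.51 under all 6 alternatives to the cell filter and rule, and all 24 named genes kept their side of 1.5-fold without the cell richest in each. Counts of genes past 1.5-fold moved under several settings. Against 105 higher and 21 lower, 194 were higher with the rule at 1% of UMIs, 66 higher and 36 lower with TMM, 61 and 41 with median of ratios, 199 and 223 with the mean of per-cell CPM, 16 and 13 with cells thinned to 1000 UMIs, 256 and 75 at a minimum of 10 CPM and 20 UMIs, 34 lower with a pseudocount of 1 CPM, and 33 higher with both sides weighted equally. The per-cell mean gives shallow cells equal weight, and thinning left 258 eligible genes. On the granulocyte side, 83 lower genes became 135 with median of ratios and 54 with the rule at 1%. On the monocyte side, 78 higher and 70 lower became 185 and 110 with the rule at 1%, which leaves 2 cells of 10% Tet2+/+ BMT. The cause of the other moves was not tested.

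Of 105 list medians under other settings, 85 stayed within the quartiles of their list. With the rule at 1%, the medians were -0.21 for the rule genes, 0.18 for haem synthesis, 0.34 for stem and early progenitor genes, 1.23 for monocyte commitment, 0.69 for G2/M, 0.19 for glycolysis and 0.65 for MHC class II. With thinned cells they were -0.51 for the rule genes, -0.72 for haem synthesis, -0.80 for stem and early progenitor genes, -0.50 for endoplasmic reticulum folding, -0.20 for DNA methylation and 0.18 for NADPH oxidase. With TMM they were -0.50 for the rule genes and -0.13 for ribosome biogenesis, and with median of ratios -0.51, -0.14 and, for oxidative phosphorylation, -0.26. With free RNA subtracted they were 0.49 for mature and activated neutrophil genes and 0.31 for MHC class II. The ratio of S phase sums was 1.04 with the rule at 1%, 1.07 with thinned cells and 0.89 on the monocyte side, and that of G2/M sums 1.57 with the rule at 1% and 1.08 on the monocyte side. Clustering at resolution 2 gave 11 clusters. Monocyte-side cells were 24.6% and 4.65% of members with the rule at 1%.

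The comparison of sides, the limit of 2000 UMIs, equal weighting of sides, the scalings within sides, the removal of the richest cell and the restriction to clusters 6 and 7 were chosen after seeing the data. No paired analysis was possible because each group had 1 library and no result comes from a test, and with 1 library per group none can be left out. Depth limits the monocyte side of 10% Tet2+/+ BMT most, with 19 cells and 532409 UMIs.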

Other observations

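NADPH oxidase genes, which arm the oxidative burst, were present on both sides of the primary-granule cells, with Cybb, the catalytic subunit, at 562 CPM in 10% Tet2-/- BMT and 330.4 CPM in 10% Tet2+/+ BMT on the granulocyte side and at 357 and 400.1 CPM on the monocyte side, and Cyba at 1572 and 1660 CPM and at 1317 and 1533 CPM. Interferon-stimulated genes were low, with 8 of 25 at 10 CPM or more over all members. Of these 8, Ifitm3 was the 1 past 1.5-fold over all members, at 717 and 340.2 CPM, while on the granulocyte side it was at 140.1 and 96.7 CPM and on the monocyte side at 1294 and 941 CPM, neither past 1.5-fold. Its ratio over all members thus exceeded that within either side. Ifitm1, not in that list, was at 203 and 31.4 CPM over all members. On the monocyte side 5 of 11 measured interferon-stimulated genes were lower and none higher (median -0.28), among them Isg15 at 4.54 and 26.3 CPM from 10 and 14 UMIs. Over all 7483 genes at that level there, 5.09% were higher and 5.06% lower. The sum of the list went the other way, at 1612 and 1320 CPM (ratio 1.22, 1.13 to 1.33), most of it from Ifitm3.

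Plac8, a small protein of myeloid precursors, did not follow the sides, at 2244 and 2511 CPM on the granulocyte side and 2444 and 1784 CPM on the monocyte side. Calr, the calcium-binding chaperone of glycoproteins that include myeloperoxidase, was at 423 and 532 CPM on the granulocyte side and at 570.1 and 385 CPM on the monocyte side, neither past 1.5-fold, with ratios below 1 on the granulocyte side and above 1 on the monocyte side.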
